A study of Daphnia magna with 84 samples.

Results

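The 100 gene models described here are those whose level had the strongest negative rank relation to the concentration of coal ash in whole Daphnia magna. They were the 100 with the lowest Spearman rank correlation between level and concentration among 7281 eligible models, out of 27350 models in the count table. The level was log2(CPM + 1), where CPM is the count scaled to a library total of 1000000 counts outside the 40 most abundant models, and the mean of each day was subtracted first. Eligible models had IDs beginning with APZ42, a mean of at least 5 CPM, day means within 1 log2 unit of each other and a place outside 3 scaffolds that were left out. The members were thus chosen by their measured levels against concentration, and that relation is given below as a description.

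Each of the 84 libraries came from 1 whole animal. The animals were taken at day 6, 10, 17 or 24, with 3 animals at each of 7 concentrations and 4 days. Concentrations were named by mercury content as 0, as 0.015 and 0.06, as 0.12 and 0.25, and at the upper end as 1 and 4 nM Hg/L, although the mixture holds other coal ash constituents as well. Exposure was through food: the green alga Chlamydomonas reinhardtii was held in the mixture and then fed to the animals. The labels carry the treatment tag coal ash for all groups, concentration 0 included, and give no clone, strain or age. The 3 libraries of concentration 0 at day 24 were not used to choose the members, which leaves 81 libraries in 27 groups, 9 of them at concentration 0 and 12 at each other concentration.

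Daphnia magna is a filter-feeding freshwater crustacean that reproduces mostly by parthenogenesis and passes through repeated cycles of moulting and egg production. Coal ash carries mercury together with other metals and metalloids, and animals that graze on algae take these up through the gut. Metal exposure in Daphnia is classically associated with metallothioneins, antioxidant enzymes and reduced growth or reproduction. The deposited table pairs no ID with a gene name, so none of these roles can be assigned to a member, and models are given by ID and position. In whole animals, fewer cells of a type and less RNA per cell cannot be told apart.

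Counts outside the 40 most abundant models, the depth behind the values below, ranged from 120113 to 1707867 in the 81 libraries, with a median of 884716. Total counts of all 84 libraries ranged from 7127253 to 27952023, of which the 40 models took 90.9% to 99.8%. Depth was not even over the concentrations, since the lowest median was 650531 counts at 4 nM Hg/L and the shallowest groups were 0.12 nM Hg/L at day 24 and 4 nM Hg/L at day 6. The 3 unused libraries had 11869, 19535 and 33522 such counts. 1 library stood apart in the members: at concentration 0, day 10, replicate 2, their summed level was 36843 CPM, while the other 8 libraries of concentration 0 lay between 18435 and 23776 CPM. Among those 9 libraries it held the highest value of 76 of the 100 members, against 28.2% of eligible models. Values below include this library unless stated, and only some results that rest on it are also given without it. Without it, 93 of the 100 were chosen again.

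The rank correlation over the 81 libraries ran from -0.594 to -0.443 among the members, with a median of -0.473. The members were the tail of a distribution that lay mostly below 0. The median rank correlation of the eligible models was -0.129, and 73.7% of them were below 0. At the lower end 1084 eligible models had a rank correlation of -0.3 or less, and at the upper end 86 had 0.3 or more. This lean depended on scaling: with library sizes scaled by the trimmed mean of M-values (TMM), the median rank correlation of the eligible models was -0.056 and 60.9% were below 0. The limit of the list did not fall at a gap. Just inside were APZ42_026626 (scaffold02101, 111578 to 114694, rank correlation -0.444) and APZ42_012142 (scaffold00084, 414337 to 417219, rank correlation -0.443), and just outside were APZ42_011336 (scaffold00024, 1088560 to 1091587, rank correlation -0.443) and APZ42_028195 (scaffold02385, 247744 to 256862, rank correlation -0.442).

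**Figure D1:**
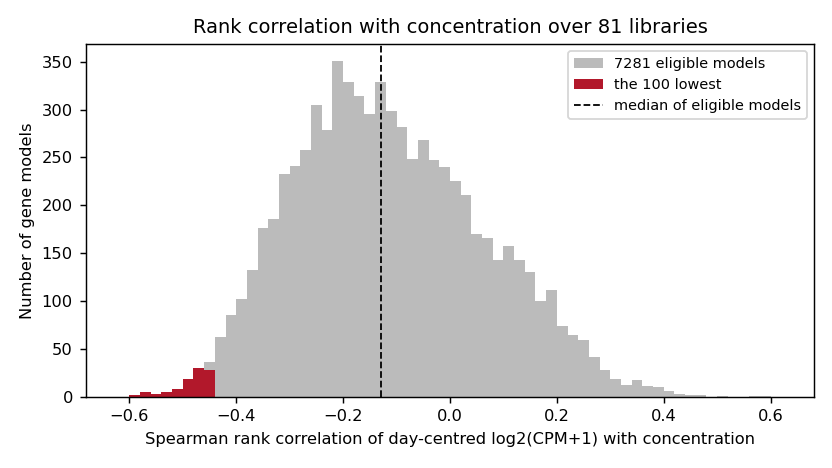
Histogram of rank correlation between day-centred log2(CPM + 1) and concentration over 81 libraries, with the number of gene models on the vertical axis. The 7281 eligible models are in grey, the 100 lowest in red, and the dashed line marks the eligible median of -0.129. The red tail joins the grey distribution without a gap.

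Membership changed with the scaling and with the days used. With CPM taken over all counts, the 40 most abundant models included, 30 of the 100 were still among the lowest 100. That setting also changed which models were eligible: 1374 models were, among them 60 of the members. With TMM-scaled library sizes 74 were kept, and without the 7 libraries under 300000 counts 73 were kept. Leaving out 1 day kept 42 without day 6, 54 without day 10, 58 without day 17 and 62 without day 24. Leaving out any 1 library kept between 81 and 98.

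The members were longer, richer in exons and more abundant than the models they were drawn from. Their median was 10 exons, against 6 among eligible models, and 57 of them had at least 10 exons, against 25.1% of eligible models. Their median exonic length was 3485 bases, against 2322. The median of the mean level was 133 CPM, against 30.4, and per kilobase of exon it was 34.2 CPM, against 13.7. When eligible models were split into 4 classes of equal size by mean CPM, the lowest class gave 0 members, the second 4, the third 21 and the highest 75. The median rank correlation of those classes was -0.079, -0.124, -0.166 and -0.164, so the highest class as a whole did not lie below the third. Members thus came mostly from the class with the most counts per model, and the part of counting noise in the choice was not tested.

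The members were spread over 67 scaffolds, and none lay on a contig, where 6.66% of eligible models lie. Of the 100, 59 were on the plus strand. APZ42_015358 (scaffold00512, 2927868 to 2942575, minus strand) was the one member with a single exon, of 14708 bases, and APZ42_018088 (scaffold00745, 123736 to 144420, plus strand) had the most, at 65. It overlaps another member, APZ42_018091 (scaffold00745, 116705 to 123787), by 52 bases on the same strand, and reads in the overlap could be counted for either. APZ42_034295 (scaffold03373, 2378 to 5135, minus strand) and APZ42_034296 (scaffold03373, 5356 to 6752, plus strand) lie head to head with 220 bases between them. These were the 2 pairs of members adjacent in the table.

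The summed level of the members was 23079 ± 5478 CPM at concentration 0 (SD, n = 9), with the high library of day 10 included. It was 21902 ± 3660 at 0.015, 20403 ± 2468 at 0.06 and 20255 ± 6330 at 0.12 nM Hg/L (SD, n = 12 each). Without the high library the mean at concentration 0 was below the 21902 CPM at 0.015 nM Hg/L, so the order of these means rested on 1 animal. At the higher concentrations the summed level was 18222 ± 3603 at 0.25, 15341 ± 3196 at 1 and 15782 ± 2796 at 4 nM Hg/L (SD, n = 12 each). The animals at 1 and 4 nM Hg/L thus lay lowest. Their ranges overlapped that of concentration 0 slightly: 8928 to 18738 CPM at 1 and 10889 to 19390 CPM at 4, against 18435 to 36843 CPM at 0. Day 24 enters these values at every concentration but 0, so the days compared were not the same. At days 6, 10 and 17 the group means were 20420, 27357 and 21458 CPM at concentration 0. They were 16044, 17093 and 17349 CPM at 4 nM Hg/L, where the mean of day 24 was 12643 CPM. As a share of the counts of all eligible models, the members made up 3.82% ± 0.67 at concentration 0 and 2.80% ± 0.36 at 4 nM Hg/L. These shares are over the same unequal days.

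**Figure D2:**
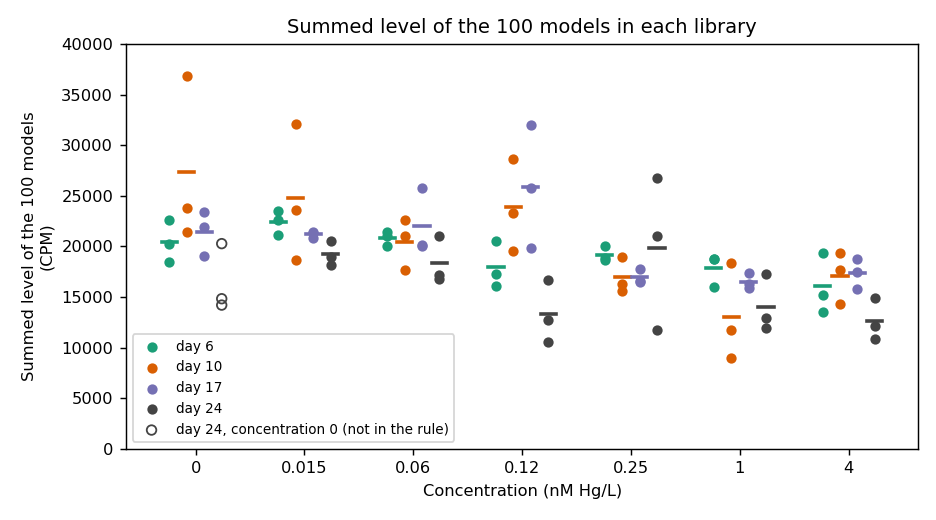
Summed level of the 100 members in CPM (vertical axis) in each animal, by concentration in nM Hg/L (horizontal axis) and day (colour), with bars at the mean of each group of 3. Open circles are the 3 animals of concentration 0 at day 24, which the choice of members did not use. The highest point, 36843 CPM, is concentration 0, day 10, replicate 2, and all animals at 1 and 4 nM Hg/L lie at or below 19390 CPM.

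Levels were not a steady ramp over the concentrations. The median member stood 0.23 log2 units above its day mean at concentration 0, 0.27 above at 0.015, 0.15 above at 0.06 and 0.04 above at 0.12 nM Hg/L. It stood 0.04 below at 0.25, 0.32 below at 1 and 0.29 below at 4 nM Hg/L. All 100 members were lower at 1 than at 0.25 nM Hg/L, and this was the greatest single fall for 49 of them. The median step there was -0.27 log2 units, while the 3 steps from 0.015 to 0.25 nM Hg/L had medians of -0.12, -0.11 and -0.08. Eligible models also fell from 0.25 to 1 nM Hg/L, with a median step of -0.13. Their medians for the 3 steps before it were -0.05, -0.20 and 0.21, and from 1 to 4 nM Hg/L it was -0.06. From 1 to 4 nM Hg/L there was no further fall in the median member, and 40 members were lower at 4 than at 1. The lowest mean was at 1 nM Hg/L for 60 members, at 4 for 38 and at 0.12 for 2. The highest mean was at 0.015 nM Hg/L for 53 members and at concentration 0 for 33. Day 24 enters these levels at every concentration but 0, and its day mean lacks concentration 0. Comparisons with concentration 0 are thus over unequal days. A fall at all 6 steps was seen in 1 member.

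Averaged over days 6, 10 and 17, the median member was 0.50 log2 units lower at 4 nM Hg/L than at concentration 0, a fold of 0.708, with members ranging from 0.373 to 0.909. The median eligible model was 0.29 log2 units lower, a fold of 0.819. With TMM scaling the differences were -0.41 for the members and -0.21 for the eligible models. For 75 members the difference exceeded the spread between animals of a group, whose median over members was 0.42 log2 units (SD within groups), against 0.69 among eligible models. Among the eligible models the difference exceeded that spread in 1428 of 7281, and since the members were chosen for this difference nothing is read from their count. For 2 members all 9 animals at 4 nM Hg/L lay below all 9 at concentration 0 of the same days. They were the 2 of all 7281 eligible models (0.0275%) for which this held. Ranges that were apart in the other direction were not counted. The median at 4 nM Hg/L lay below all 9 animals at concentration 0 for 38 members, where the same held for 6.83% of eligible models; concentration chose the members, so nothing is read from the excess.

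The size of the difference between 4 nM Hg/L and concentration 0 varied by day. At day 6 the median member differed by -0.49 log2 units and 91 members were lower, while the median eligible model differed by -0.54 and 72.8% of eligible models were lower. At that day 2 of the 3 animals at 4 nM Hg/L had 120113 and 254617 counts. At day 10 the median member differed by -0.67 and all 100 were lower, with an eligible median of -0.17. Without replicate 2 of concentration 0 the day 10 difference was -0.42, with 95 members lower, and the mean over the 3 days was -0.41 in place of -0.50. At day 17 it was -0.34, with 96 lower, and an eligible median of -0.15. At day 24, where 0.015 nM Hg/L was the lowest concentration used, the difference from it at 4 nM Hg/L was -0.66, with all 100 lower, and the eligible median was -0.32. In all, 87 members were lower at the top concentration on each of the 4 days, against 26.8% of eligible models. In edgeR's quasi-likelihood fit, the member medians of 4 nM Hg/L against concentration 0 were -0.27, -0.63 and -0.23 at days 6, 10 and 17. Members below 0 were 75, 100 and 86 in turn. At an adjusted p below 0.05 this fit called 2, 0 and 0 members lower, and 94, 0 and 0 of 12690 models. At day 6 it also called 229 models higher, with 0 members among them.

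Single groups departed from the overall order. The highest group mean of the summed level was 27357 ± 8297 CPM at concentration 0, day 10 (SD, n = 3), and the lowest that of day 24 at 4 nM Hg/L, 12643 ± 2025 CPM. At day 10 the group at 1 nM Hg/L, with 13004 ± 4815 CPM, lay below that at 4 nM Hg/L, with 17093 ± 2554 CPM. At day 17 the group at 0.12 nM Hg/L was the highest of its day, with 25886 ± 6077 CPM, and at day 24 the same concentration was among the lowest, with 13294 ± 3118 CPM. The 3 animals of 0.12 nM Hg/L at day 24 had 143349 to 242369 counts; the part of depth in that group's level was not tested.

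**Figure D3:**
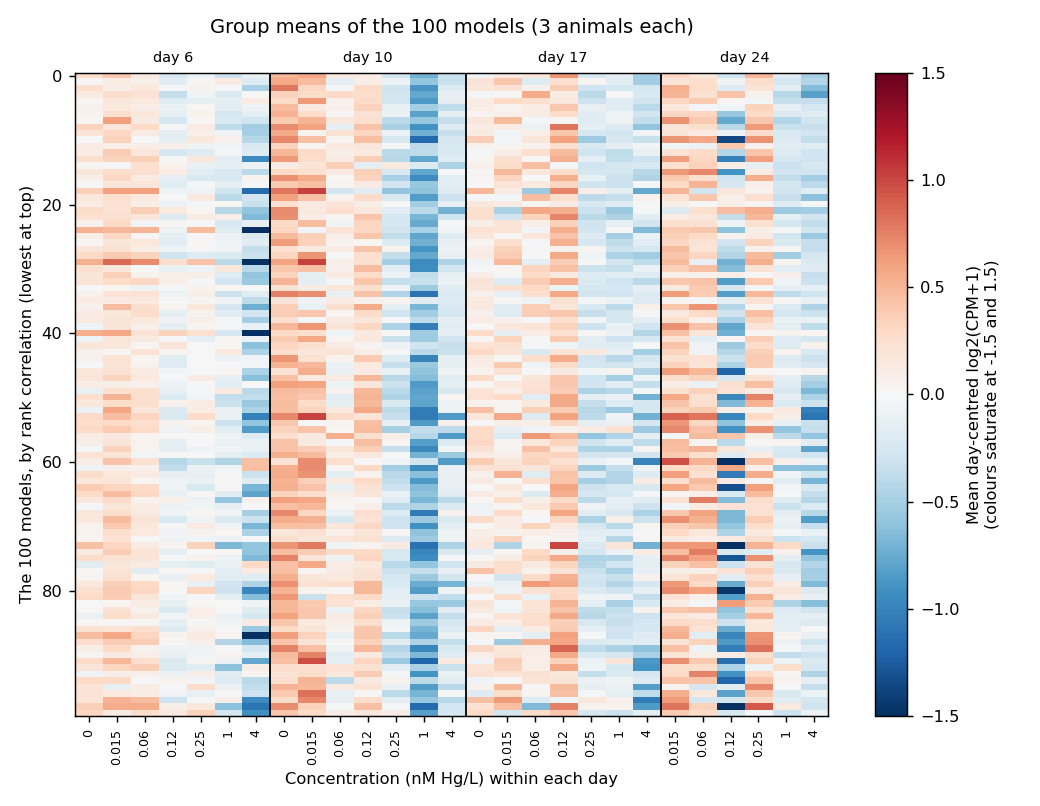
Mean day-centred log2(CPM + 1) of each of the 100 members (rows, lowest rank correlation at top) in the 27 groups of 3 animals, arranged by day and, within a day, by concentration in nM Hg/L; red is above and blue below the day mean. Columns at 1 nM Hg/L of day 10 and 0.12 nM Hg/L of day 24 are the bluest and depart from a steady gradient.

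The member with the lowest rank correlation was APZ42_020451 (scaffold00996, 274697 to 280756, plus strand, 8 exons), at -0.594. Its lowest, median and highest levels were 68.0, 90.9 and 206 CPM at concentration 0 (n = 9), 75.7, 104 and 150 CPM at 0.015, and 72.1, 87.7 and 125.4 CPM at 0.06 nM Hg/L (n = 12 each). They were 46.2, 82.4 and 209 CPM at 0.12, 60.3, 73.8 and 150.6 CPM at 0.25, 32.6, 64.5 and 112 CPM at 1, and 40.1, 65.7 and 85.99 CPM at 4 nM Hg/L. Animals at the extremes of concentration still overlapped, since the lowest at concentration 0 was below the highest at 4 nM Hg/L. The second lowest was APZ42_016544 (scaffold00626, 1052188 to 1058140, plus strand, 10 exons), with a rank correlation of -0.583. Its levels were 115, 142.5 and 230 CPM at concentration 0, 59.2, 115 and 168.3 CPM at 1, and 51.1, 98.6 and 145.3 CPM at 4 nM Hg/L. Its median at 0.25 nM Hg/L, 134 CPM, was above those at 0.06 and 0.12 nM Hg/L, 125.3 and 115 CPM.

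The most abundant member was APZ42_022275 (scaffold01361, 35132 to 52845, minus strand, 24 exons), with a mean of 1164 CPM. Its lowest, median and highest levels were 1092, 1167 and 1769 CPM at concentration 0 and 694, 1019 and 1395 CPM at 4 nM Hg/L. Day 6 animals were the highest at most concentrations, and the ranges at the extremes overlapped. APZ42_024804 (scaffold01763, 49469 to 53960, plus strand, 10 exons) followed, with levels of 484, 630 and 1351 CPM at concentration 0 and 359, 491 and 659 CPM at 4 nM Hg/L. The 1351 CPM came from replicate 2 of day 10. Per kilobase of exon the order of these members was reversed, with means of 75.3 CPM for APZ42_022275 and 299 CPM for APZ42_024804.

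Low-level members gave the steepest fitted falls. APZ42_023636 (scaffold01574, 467165 to 469593, minus strand, 9 exons) had 9.37, 16.03 and 26.9 CPM at concentration 0 and 0, 6.86 and 27.5 CPM at 4 nM Hg/L. APZ42_020922 (scaffold01019, 158520 to 172285, minus strand, 17 exons) had 13.9, 30.9 and 66.2 CPM at concentration 0 and 3.93, 12.9 and 37.7 CPM at 4 nM Hg/L. For both the median was lower at 4 nM Hg/L, and the ranges overlapped. The smallest fitted falls were in APZ42_016910 (scaffold00642, 1398061 to 1405255, plus strand, 8 exons), at 459, 667 and 778 CPM at concentration 0 and 325, 516 and 592 CPM at 4 nM Hg/L, and in APZ42_027709 (scaffold02230, 45376 to 57730, plus strand, 16 exons), at 191, 290 and 437 CPM and 139, 230 and 302 CPM.

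The models on either side of the list's limit differed in level. APZ42_026626 had 47.1, 76.3 and 195 CPM at concentration 0 and 8.33, 38.2 and 80.5 CPM at 4 nM Hg/L, and APZ42_012142 had 40.5, 66.8 and 79.6 CPM and 16.7, 35.5 and 66.8 CPM. Outside the list, APZ42_011336 had 104, 140 and 334 CPM at concentration 0 and 74.9, 120 and 148.2 CPM at 4 nM Hg/L, and APZ42_028195 had 144, 190 and 326 CPM and 83.3, 128 and 202 CPM. The models outside the list were thus the more abundant ones. All 4 medians were lower at 4 nM Hg/L, and all 4 pairs of ranges overlapped. Of the overlapping models, APZ42_018091 had 121.5, 198 and 492 CPM at concentration 0 and 41.6, 144 and 202 CPM at 4 nM Hg/L, and APZ42_018088 had 221, 361 and 534 CPM and 189, 255 and 334 CPM. Both medians were lower at 4 nM Hg/L, although the share of their counts from the overlap is not known.

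**Figure D4:**
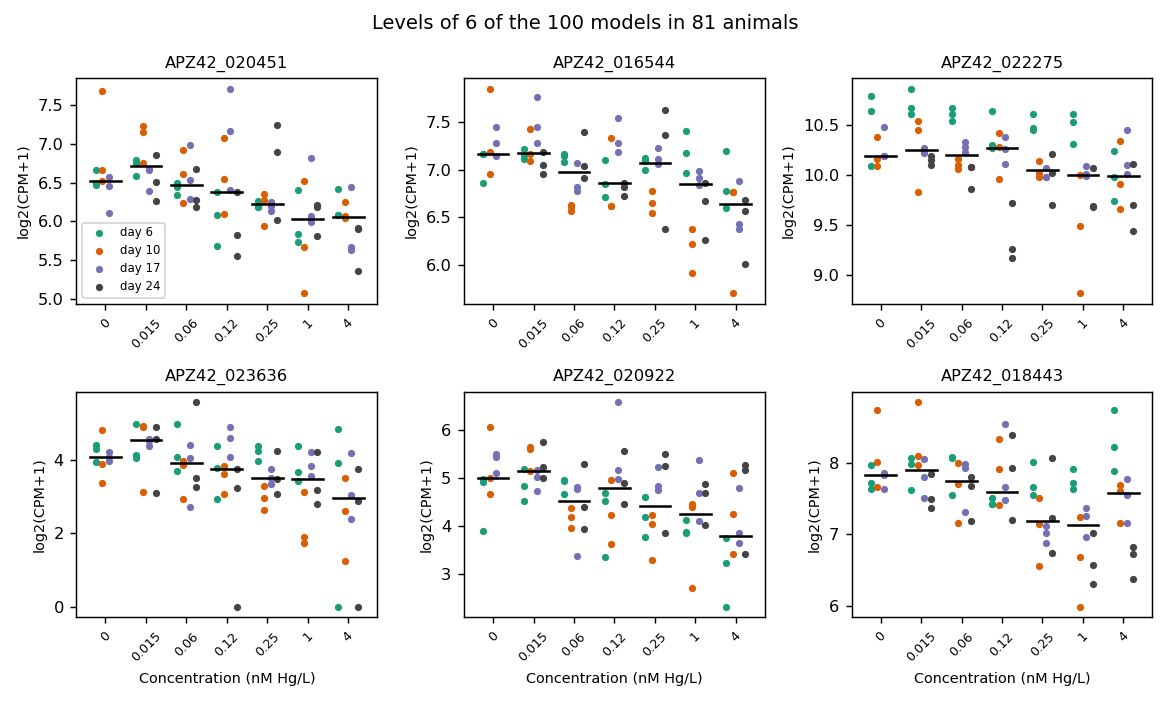
log2(CPM + 1) of 6 members in each of 81 animals (vertical axes) by concentration in nM Hg/L (horizontal axes), coloured by day, with a bar at the median of each concentration. The panels show the lowest and second lowest rank correlation (APZ42_020451, APZ42_016544), the highest mean level (APZ42_022275), the steepest fitted falls (APZ42_023636, APZ42_020922) and the member whose slope differed between days (APZ42_018443); points of neighbouring concentrations overlap in every panel.

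The fitted slope restates the choice in a model of counts. edgeR's quasi-likelihood fit of 81 libraries, with 1 mean per group and a score of the concentration's rank from 0 to 6, gave a median member slope of -0.08 log2 units per rank, from -0.19 to -0.01. All 100 members passed the filter on low counts, and the median slope over all 12690 models tested was 0.00. At an adjusted p below 0.05 (Benjamini-Hochberg over all models), 88 members were called falling, where 3.36% of all models were. The contrast is the one that chose the members, so nothing is read from this count. Without replicate 2 of concentration 0 at day 10, 65 members were called and the median slope was -0.07. APZ42_020451 had a slope of -0.09 (SE 0.02, adjusted p = 0.0027), and APZ42_023636 one of -0.19 (SE 0.05, adjusted p = 0.010). APZ42_022275 and APZ42_016910 were among the 12 members not called, with slopes of -0.03 (adjusted p = 0.067) and -0.01 (adjusted p = 0.56). For days 6, 10, 17 and 24 in turn, the median member slope was -0.04, -0.13, -0.06 and -0.07, and slopes were below 0 in 82, 100, 99 and 89 members. Within these days 5, 68, 0 and 3 members were called falling, as were 91, 515, 0 and 20 of the 12690 models. Most calls within days thus came from day 10, whose slopes include replicate 2 of concentration 0.

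Whether the slope differed between days is a comparison the choice did not make. edgeR's joint test called 1 member, APZ42_018443, against 3.17% of all models, and 30 members had an unadjusted p below 0.05, as did 2366 of the 12690 models tested. APZ42_018443 (scaffold00786, 1247 to 3089, minus strand, 9 exons) had a positive slope of 0.07 at day 6 and negative slopes of -0.18, -0.08 and -0.18 at days 10, 17 and 24 (adjusted p = 0.0062 for the difference). At day 6 its 3 animals had 197, 209 and 250 CPM at concentration 0 and 236, 298 and 425 CPM at 4 nM Hg/L. At day 10 they had 202, 256 and 424 CPM at concentration 0, 62.6, 102 and 150.9 CPM at 1 nM Hg/L and 142, 194 and 206 CPM at 4 nM Hg/L. At 4 nM Hg/L the level was thus high at day 6 and low at day 24, where its 3 animals had 81.9, 105 and 112 CPM.

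The call was not kept under every setting. With the log2 of the counts outside the 40 models as a covariate the unadjusted p of APZ42_018443 was 0.0012 and the adjusted p 0.14, and without the 7 libraries under 300000 counts they were 0.0015 and 0.21, so that no member was called in either case. Calls over all models fell from 402 to 13 and 4 under these settings, and what lowered them was not tested. Leaving out any 1 library kept the adjusted p of APZ42_018443 between 0.0021 and 0.046. The count of members called moved from 1 to 9 without 4 nM Hg/L day 6 replicate 3, to 4 without 1 nM Hg/L day 10 replicate 2, and to 3 without 4 nM Hg/L day 10 replicate 2, 0.06 nM Hg/L day 17 replicate 3 or 0.12 nM Hg/L day 24 replicate 3. It moved to 2 without concentration 0 day 10 replicate 3, 0.015 nM Hg/L day 10 replicate 1, 4 nM Hg/L day 17 replicate 1, 0.06 nM Hg/L day 24 replicate 1, 0.25 nM Hg/L day 24 replicate 2, 1 nM Hg/L day 24 replicate 1, or either of replicates 1 and 2 of 4 nM Hg/L day 24. DESeq2's likelihood ratio test called 5 members.

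A departure from a straight line over the ranks was not called in any member. edgeR's quasi-likelihood test of a quadratic score gave a lowest adjusted p of 0.079 among the members, with 18 at an unadjusted p below 0.05, as had 1688 of the 12690 models tested, and it called 0.15% of all models. DESeq2 called 0 members too, with 16 at an unadjusted p below 0.05. Of the members, 84 had a negative quadratic term, which is a curve that falls faster at high ranks, and the median term was -0.01. The test has 1 curvature term and does not address the step between 0.25 and 1 nM Hg/L described above. Leaving out 4 nM Hg/L day 10 replicate 2 or 0.12 nM Hg/L day 24 replicate 2 gave 1 called member each.

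The 3 animals of concentration 0 at day 24 were independent of the choice, and their depth limits what they show. The members had 176, 396 and 476 counts in them in all, a median of 6.5 counts per member over the 3 animals, and 33 members had 3 counts or fewer. Their summed level was 14200, 14829 and 20271 CPM. The 18 exposed animals of day 24 ranged from 10506 to 26736 CPM, with a median of 16736, and the 9 animals of concentration 0 at earlier days from 18435 to 36843 CPM. The 3 animals thus lay inside the range of the exposed animals of their day, and 2 of them lay below all earlier animals of concentration 0. Pooled over the 3, 38 members were above the pooled exposed animals of day 24 and 62 below, whereas 26.5% of eligible models were above. Of the eligible models 34.7% had 0 counts in these 3 animals and could not lie above, against 4 of the 100 members.

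In edgeR's fit of all 84 libraries, 32 members were called lower at concentration 0 than in the mean of the 6 exposed concentrations at day 24, and 2 were called higher. Of all models, 16.7% were called lower and 1.51% higher. The median log2 difference was -0.68 over the members and -1.60 over all models, so the median member lay 0.92 above the median of all models. This offset was 0.35 without a filter and 0.59 with day 24 libraries only. Members were more abundant than the eligible models, and no comparison at matched abundance was made. Both medians depended on scaling, at -0.13 and -1.05 under DESeq2 size factors, where the offset was 0.93. There 12 members were called lower and 12 higher. DESeq2 itself gave medians of -0.17 and 0.14 and called 3 members higher and 0 lower, with 16 at an unadjusted p below 0.05. The members' median thus lay above that of all models in edgeR's fits and below it in DESeq2's.

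The 2 members called higher at concentration 0 were APZ42_018443 and APZ42_028776. APZ42_018443 had 656 and 665 CPM in 2 of the 3 animals and 84.3 CPM in the other, on 36 counts in all. Among exposed animals of that day the highest was at 334 CPM, at 0.12 nM Hg/L, and the lowest at 78.0 CPM, at 1 nM Hg/L. Its fitted difference was 1.19 log2 units (SE 0.26, adjusted p = 5.2e-04), and without replicate 1 of concentration 0 it was 0.59 (adjusted p = 0.24). APZ42_028776 (scaffold02452, 890920 to 900296, plus strand, 7 exons) had 805, 843 and 1229 CPM on 61 counts. The exposed animals of that day ranged from 318 CPM, at 4 nM Hg/L, to 828.9 CPM, at 0.25 nM Hg/L, so that 1 of them lay above the lowest at concentration 0. Its fitted difference was 0.52 (SE 0.17, adjusted p = 0.021). It was not called without replicate 1 or 3 of concentration 0 (0.41, adjusted p = 0.17, and 0.32, adjusted p = 0.32). The same held without replicate 3 of 0.06, replicate 2 of 0.25, replicate 2 of 1 or replicate 3 of 4 nM Hg/L, with adjusted p between 0.052 and 0.058 and 1 member called higher in each of these 4 fits. Without replicate 2 of concentration 0, 5 members were called higher.

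The members called lower with the largest fitted differences, APZ42_019065 and APZ42_029056, had 0 counts in the 3 animals, so the fitted differences give no size. A floor of 3 counts over the group corresponds to 46.2 CPM. APZ42_019065 (scaffold00872, 382274 to 389180, plus strand, 12 exons) was at 69.9 CPM in the pooled exposed animals of day 24, and was at least 1.51-fold lower at concentration 0. APZ42_029056 (scaffold02507, 13239 to 16090, plus strand, 10 exons) was at 66.7 CPM there, and was at least 1.44-fold lower. At earlier days both were well measured at concentration 0, with medians of 83.5 and 93.3 CPM. In all, 4 members had 0 counts in the 3 animals, as had 34.7% of the eligible models, and floors of this kind cover counting error only.

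Over days the members moved within the limit of 1 log2 unit that their choice set. In edgeR's fit, 16 members were called higher and 26 lower at day 10 than at day 6, where 24.3% of all models were called higher and 21.6% lower. At day 17 the counts were 9 higher and 31 lower, where 17.8% of all models were called higher and 17.8% lower. At day 24, over the 6 exposed concentrations, they were 5 higher and 44 lower, against 18.4% and 20.3%. The members thus leaned lower with time, at median differences from day 6 of 0.00, -0.09 and -0.23 log2 units, against -0.01, 0.01 and -0.09 over all models.

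APZ42_015358, the single-exon member, had the greatest rise at day 10. Its lowest, median and highest levels were 11.8, 37.4 and 57.9 CPM at day 6 and 39.4, 69.2 and 137.01 CPM at day 10 (n = 21 each), a fitted change of 0.79 (SE 0.13, adjusted p = 1.5e-06). All 21 day 10 animals thus lay above the day 6 median. APZ42_026764 (scaffold02121, 333310 to 335716, plus strand, 8 exons) had the greatest fall at day 24, from 41.6, 158.2 and 221 CPM at day 6 to 21.0, 83.9 and 214 CPM at day 24 (n = 18), a change of -0.98 (SE 0.15, adjusted p = 3.2e-07). APZ42_027293 (scaffold02190, 1208206 to 1211395, plus strand, 6 exons) had the greatest fall at day 17, at -0.72 (SE 0.12, adjusted p = 1.8e-06). APZ42_023528 (scaffold01574, 96406 to 106335, minus strand, 14 exons) had the greatest rise at day 17, at 0.47 (SE 0.10, adjusted p = 6.5e-05). APZ42_023636 fell most at day 10, at -0.87 (SE 0.25, adjusted p = 0.0032), and APZ42_020922 rose most at day 24, at 0.67 (SE 0.19, adjusted p = 0.0039). These members, the steepest with concentration, thus changed in opposite directions with time, at different days.

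The members also varied together between animals of the same group. After the mean of each group was subtracted, the Pearson r of log2(CPM + 1) over 81 libraries had a median of 0.45 over the 4950 pairs of members, with quartiles of 0.31 and 0.57, and was above 0 in 97.1% of pairs. Over pairs of eligible models the median was 0.099, and over pairs from the highest class by mean CPM it was 0.074. Leaving out any 1 library kept the members' median between 0.41 and 0.46, and without replicate 2 of concentration 0 at day 10 it was 0.44. All pairs share the same libraries and CPM denominators, and the members were chosen for a shared direction, so the values are a description.

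Average linkage at an r of 0.5 placed 88 members in 9 blocks, of 44, 13, 9, 8, 4, 3, 3, 2 and 2 members, and left 12 alone. The largest block had a median r of 0.63, a median mean level of 188 CPM and a median of 10 exons. The members closest to the rest of it were APZ42_032404 (scaffold03116, 155996 to 160305, plus strand, 10 exons) and APZ42_016347 (scaffold00626, 252773 to 260081, minus strand, 11 exons). APZ42_032404 had 263, 317 and 717 CPM at concentration 0 and 119, 262 and 379 CPM at 4 nM Hg/L. APZ42_016347 had 316, 425 and 1153 CPM and 148.7, 323 and 488 CPM. In both the highest value at concentration 0 was replicate 2 of day 10. The block of 13 held longer models, with a median exonic length of 7115 bases and a median level of 371 CPM. The adjacent pairs had an r of 0.61 (APZ42_018091 and APZ42_018088) and 0.72 (APZ42_034295 and APZ42_034296).

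**Figure D5:**
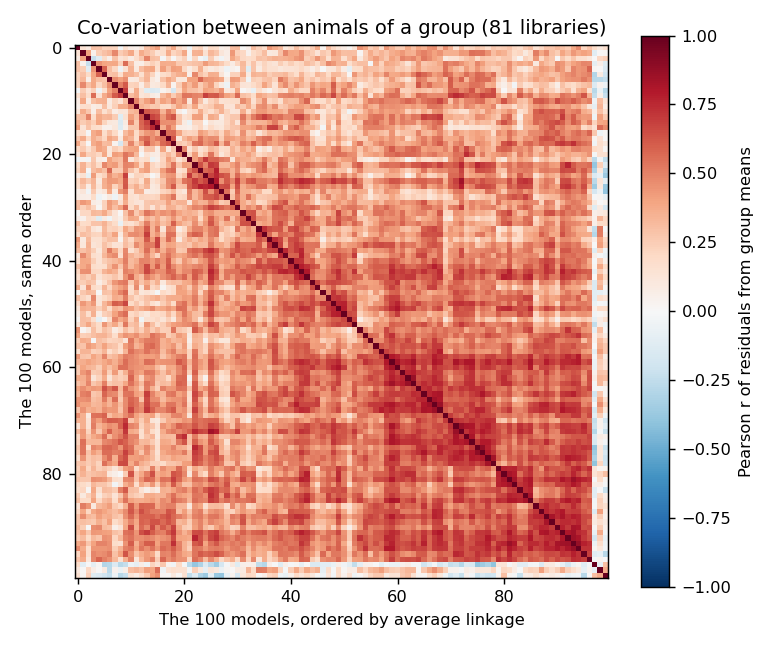
Pearson r between each pair of the 100 members over 81 libraries after group means were subtracted, with members in the order of average linkage on both axes; red is positive and blue negative. Most of the square is red, with a median of 0.45, and 1 large block fills the lower right.

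Levels of the head-to-head pair over concentrations, for which both were chosen, were as follows. APZ42_034295 had 398, 674 and 897 CPM at concentration 0, 183, 458 and 658 CPM at 0.25 and 154, 524 and 773 CPM at 4 nM Hg/L. APZ42_034296 had 40.03, 53.4 and 87.2 CPM at concentration 0, 16.4, 37.0 and 50.8 CPM at 0.25 and 8.36, 32.8 and 60.2 CPM at 4 nM Hg/L. Medians of both were lower from 0.25 nM Hg/L on, and ranges overlapped throughout. The models lie on opposite strands, and since the strand setting of the counting is not given in the sources used here, shared reads could not be checked.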

How the data were processed

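RNA of 84 single whole animals was sequenced after ribosomal RNA depletion with a strand-marking kit, per the labels' protocols, and the submitters' processing notes name STAR 2.7.5b. No counting tool, strand setting, genome build or annotation is named there or in the labels. The authors deposited whole-number counts per gene model, not normalized. Model positions are those in that table; 0 IDs matched the reference gene table, so no names or sequences are given.

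Groups came from the concentration and day labels. 1 library labelled 0.06 nM Hg/L, day 24, replicate 3, has a title number lying among those of 0.12 nM Hg/L, and 1 title number is shared by 2 libraries of 0.12 nM Hg/L; all were kept as labelled. Whether animals shared a vessel is not given, so p-values measure the spread between these animals.

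Members and lists were chosen with earlier results of these data known. CPM, Spearman rank correlations and Pearson correlations were computed in Python 3.11.15. edgeR 4.0.16 in R 4.3.3 (filterByExpr, minimum count 10; TMM; quasi-likelihood with robust shrinkage; 1 mean per group) was fitted to 81 libraries (54 residual degrees of freedom), or to 84 (56) for concentration 0 at day 24, with Benjamini-Hochberg adjustment over all models, and checked on simulated counts. The joint test had 3 degrees of freedom. Named models are those at the extremes of rank correlation, mean CPM, fitted slope and each test, those at the list's limit, adjacent members and the centre of the largest block. Alternatives were DESeq2 1.42.0 and its size factors, no filter, edgeR's older fit, the 40 models dropped, depth as a covariate, concentration itself as score, all 84 libraries, other pseudocounts and floors, and each library left out; leaving out shallow libraries or a day was added after seeing the data.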

Additional observations from a re-analysis of the deposited data

Results flagged for a closer look

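In 25 sets of 9 animals at concentration 0 (days 6, 10 and 17; the summed level and the 24 named models), 12 had a highest animal whose gap to the next exceeded 0.493 of the range, and in all 12 it was replicate 2 of day 10. The cutoff is set for about 1 in 20 sets by chance, but that rate cannot be taken over to these sets. Their models were chosen with the levels of these animals, and 3 days are pooled. The 25 sets are also not independent, since they share the animals, so nothing is read from the number 12. The summed level was 36840 CPM in that animal and 23780 CPM in the next. APZ42_020451 had 205.5 CPM against 100.3 in the next animal, APZ42_016544 had 229.5 against 173.2, and APZ42_024804 had 1351 against 716.1. APZ42_026626 had 195.0 CPM against 88.43, APZ42_018443 had 423.9 against 255.9, and APZ42_019065 had 296.9 against 119.0. APZ42_028776 had 1105 CPM against 735.1, APZ42_026764 had 337.3 against 200.8, and APZ42_018091 had 491.8 against 256.8. APZ42_032404 had 716.7 CPM against 425.3, and APZ42_016347 had 1153 against 481.7.

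The slope of APZ42_018443 on concentration rank differed between days, with an adjusted p of 0.006205 in edgeR's quasi-likelihood test.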

How the results depend on the processing

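No paired analysis was possible because replicate numbers were given in accession order and tie no library of one group to one of another. Of the 100 members, 30 were kept with CPM over all counts, 51 with all 84 libraries, and 42, 54, 58 and 62 without day 6, 10, 17 and 24; the other rules kept more, and leaving out 1 library kept 81 to 98. The cause was not tested for the changes below. Slope calls among members were 88, with 38 under concentration as score and 31 under all 84 libraries (65 to 95 with 1 library left out). Over all models, falling calls were 426, with 237 without a filter, 144 under concentration as score, 212 under all 84 libraries and 696 without shallow libraries (210 to 724). Rising calls were 807, with 508, 515 and 1586 under the first 3 of these (552 to 1015). Members whose slope differed between days were 1, with 6 under DESeq2 size factors, 5 under DESeq2, 2 with the 40 models dropped, 0 with the depth covariate, 3 under concentration as score, 25 under all 84 libraries and 0 without shallow libraries (1 to 9). Over all models they were 402, with 247 without a filter, 246 under the older fit, 13, 879, 1661 and 4 under the last 4 settings (139 to 988). Departures from a line among members were 0, with 10 under all 84 libraries (0 to 1). Over all models they were 19, with 0 without a filter, 46 under DESeq2, 9 under the older fit, 246 under all 84 libraries and 0 without shallow libraries (1 to 95).

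At day 24, members higher at concentration 0 were 2, with 12 under DESeq2 size factors and 1 each without a filter, under the older fit and with day 24 libraries only (1 to 5). Members lower were 32, with 12 under DESeq2 size factors, 0 under DESeq2, 8 under the older fit and 8 with day 24 only (32 to 42). Over all models, higher calls were 192, with 394, 78 and 89 under size factors, the older fit and day 24 only. Lower calls were 2113, with 821, 1274, 36, 365 and 825 under size factors, no filter, DESeq2, the older fit and day 24 only (1856 to 2425). Members higher at day 10 than day 6 were 10 without a filter, at day 17 they were 14 with the depth covariate, and at day 24 they were 2 without shallow libraries. With all 84 libraries the slopes turned positive for APZ42_022275 (0.0027), APZ42_016910 (0.0085), APZ42_019065 (0.13) and APZ42_029056 (0.17); the last 2 have 0 counts at concentration 0, day 24. Depth limits what the 3 animals of concentration 0 at day 24 show.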
